A study of Mus musculus with 6 samples.

Results

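The genes described here repair broken and crosslinked DNA by homologous recombination and through the Fanconi anaemia pathway. They are 37 genes chosen by name from these roles, of which 35 had an array row that carried a single gene symbol, out of 19938 symbols measured. Xrcc2 and Rbbp8 were not analysed here. Bard1 and Nbn had several rows, and the row with the highest mean over the arrays was used for each gene. To ask how transcript levels respond to a reduced level of the POU domain transcription factor Pou3f3, N2A cells (neuro 2A), a mouse neuroblastoma cell line, were transiently transfected with a Pou3f3 knockdown construct (an shRNA vector) or with a non-targeting vector, called control. Both groups were grown in serum-containing medium, received 1.5 µg of construct and were harvested 2.5 days later, and 200 ng of total RNA was labelled for Mouse Gene ST arrays from Affymetrix. There were 3 control and 3 knockdown arrays. The arrays of a group are described as biological replicates. All come from 1 cell line, and no selection for the vector is described. The p-values therefore set a difference against the variation between arrays of its transfected cultures.

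In homologous recombination the MRE11, RAD50 and NBN proteins hold and trim a broken end, and BRCA1, PALB2 and BRCA2 then prepare the end for the invasion of a matching strand. RAD54 proteins drive the search for a matching sequence, and BLM, MUS81 and SLX4 take the joined molecules apart. The Fanconi core complex senses crosslinked DNA and attaches ubiquitin to FANCD2 and FANCI, while the kinases ATM, ATR, CHK1 and CHK2 hold the cell cycle. Most of these genes are used in S and G2 phase, when a sister copy is at hand, and many are known to be transcribed more in cycling cells.

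All values below are log2 array values, and differences are knockdown minus control, so that 0.38 corresponds to the fold cut-off of 1.3. A gene was called when it had a limma p-value, adjusted by Benjamini-Hochberg over all 21789 rows with a single symbol, under 0.1 and a difference past that cut-off. Levels of different genes cannot be set against each other, since each row has its own probes. Pou3f3 itself was 8.37, 8.30 and 8.47 on the control arrays and 8.20, 8.09 and 8.35 on the knockdown arrays, a difference of -0.16 (95% confidence interval -0.35 to 0.02) that did not pass (limma adjusted p = 0.303). With arrays blocked by replicate number its limma adjusted p was 0.0880, but the difference stays below the fold cut-off. On the array scale the fall was 10.8%. The paper measured the Pou3f3 knockdown by qRT-PCR and reports a larger fall than this array row shows. Since each row has its own probes, and without detection calls, the levels do not show which cell type markers were present. The median difference was -0.18 for 11 measured markers of sympathetic neuroblasts (-0.11 without control replicate 2) and -0.11 for 12 markers of glia and fibroblasts (-0.04 after cyclic loess). Of these, 1 neuroblast marker, Dbh, was called lower, against 3 without control replicate 1 and 2 without knockdown replicate 1. Among all symbols 0.657% were called lower. Dbh was called under all 16 other settings, with differences from -1.26 to -1.04. The groups were apart with knockdown below control for 6 of the 11 neuroblast markers, as for 15.2% of all symbols. For 1 of the 11 they were apart with knockdown above, as for 10.9% of all symbols. The part of these markers in the results was not tested. Among all rows 65.6% of the calls were higher, a share that was 82.4% with each array centred on its median and 54.6% after cyclic loess. A changed share of cells in a cycle phase and a changed RNA level per cell cannot be told apart in such bulk samples.

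Promoters of 29 of the 35 genes were found in the RefSeq sequence table of GRCm38.p6, as windows of 250 bases before and 50 bases after the start. Those of Chek2, Brip1, Mre11a, Bard1 and Fancg are shown as examples of windows that hold the words described next, picked after words and differences were seen. Of these genes Chek2, Brip1 and Mre11a were called higher, Bard1 was called with the replicate block and with a variance filter on named rows, and under none of 14 further settings, and Fancg lay below 0. Each is written from its gene's strand. Capitals mark the E2F words TTTCCCGC, TTTGGCGC, TTTGCCGC and TTTCGCGC and the box CCAAT, searched on both strands, so that GCGGGAAA and ATTGG are the same words read from the other strand.
Chek2 (chr5:110839733-110840032, plus strand): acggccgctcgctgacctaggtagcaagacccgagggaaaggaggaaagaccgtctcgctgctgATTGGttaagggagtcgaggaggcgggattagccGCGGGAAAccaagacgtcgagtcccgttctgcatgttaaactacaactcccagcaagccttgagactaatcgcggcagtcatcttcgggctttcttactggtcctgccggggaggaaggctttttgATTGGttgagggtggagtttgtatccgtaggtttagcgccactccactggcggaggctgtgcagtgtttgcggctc
Brip1 (chr11:86201144-86201443, minus strand): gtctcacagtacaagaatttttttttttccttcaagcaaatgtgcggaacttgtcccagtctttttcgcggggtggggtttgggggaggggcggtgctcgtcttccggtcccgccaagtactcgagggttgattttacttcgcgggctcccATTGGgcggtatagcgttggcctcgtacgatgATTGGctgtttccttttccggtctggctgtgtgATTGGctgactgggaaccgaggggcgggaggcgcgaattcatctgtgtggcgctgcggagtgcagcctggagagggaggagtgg
Mre11a (chr9:14784404-14784703, plus strand): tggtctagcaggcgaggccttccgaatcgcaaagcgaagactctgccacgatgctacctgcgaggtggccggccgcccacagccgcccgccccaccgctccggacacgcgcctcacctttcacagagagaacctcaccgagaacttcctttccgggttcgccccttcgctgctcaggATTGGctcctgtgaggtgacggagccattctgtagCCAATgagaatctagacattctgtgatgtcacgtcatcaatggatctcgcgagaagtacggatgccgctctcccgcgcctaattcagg
Bard1 (chr1:71102923-71103222, minus strand): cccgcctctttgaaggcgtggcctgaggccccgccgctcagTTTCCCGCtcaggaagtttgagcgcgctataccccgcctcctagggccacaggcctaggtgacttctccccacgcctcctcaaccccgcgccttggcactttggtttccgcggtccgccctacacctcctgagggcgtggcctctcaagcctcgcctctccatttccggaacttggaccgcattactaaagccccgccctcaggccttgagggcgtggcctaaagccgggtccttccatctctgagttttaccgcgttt
Fancg (chr4:43010252-43010551, minus strand): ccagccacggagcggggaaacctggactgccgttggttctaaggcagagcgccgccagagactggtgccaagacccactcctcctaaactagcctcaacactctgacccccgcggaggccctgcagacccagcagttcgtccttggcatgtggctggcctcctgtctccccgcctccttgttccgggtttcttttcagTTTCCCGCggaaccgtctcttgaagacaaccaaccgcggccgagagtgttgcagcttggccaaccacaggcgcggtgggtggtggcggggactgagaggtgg

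The word CCAAT, which the trimeric factor NF-Y recognises, was present in 62.1% of the windows of these genes (18 of 29) and in 38.3% of those of 15563 genes on the array. An E2F word, the element through which cycling genes are often controlled, was present in 5 of 29 windows (17.2%), namely those of Brca2, Bard1, Rad51c, Fancg and Chek2, and in 3.08% of the windows of genes on the array. Of the 7 called genes that had a window, 6 held CCAAT and 1, Chek2, held an E2F word. Only the exact E2F words given above were searched, so a window without them may hold another form of the element. Among the 22 genes that were not called, CCAAT was in 12 and an E2F word in 4, so that these words were found on either side of the call. Fancg, whose difference was below 0, carries TTTCCCGC 52 bases before the start. The words TTTGAA and TTCGAA, the cell cycle homology region of many mitotic promoters, were in 3 of 29 windows (10.3%) and 16.8% of those on the array, and GGGCGG in 17 (58.6%) and 49.9%. The octamer ATGCAAAT, bound by many POU proteins, was in none of the 29 windows, against 1.71% on the array. A window rich in CpG, with over 50% G and C and an observed to expected CpG ratio above 0.6, was found for 23 of 29 genes (79.3%) and for 49.5% of genes on the array. These shares are descriptions of letters in short windows and were not tested.

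Most of the recombination and Fanconi genes lay higher in knockdown cells. The difference was above 0 for 32 of 35, where 42.2% of all 19938 symbols lay above 0 (1 row each). By limma 8 were called higher and none lower, where 1.35% of all symbols were called higher and 0.657% lower. Those called were Rad51b, Rad54l, Chek2, Chek1, Rad54b, Mre11a, Palb2 and Brip1, with differences of 0.40 to 0.56. The median over the 35 genes was 0.26, against -0.03 over all symbols, and it ran from 0.21 to 0.32 on leaving out 1 array. It was 0.31 with each array centred on its median and 0.23 after cyclic loess. At an unadjusted p under 0.05, 23 of the 35 were higher and 0 lower, where 9.62% of all symbols were higher at that level. The groups did not overlap for 18 genes with knockdown above control, where 10.9% of all symbols were so, and for Xrcc3 with knockdown below, as for 15.2% of all symbols. In the range of control levels that these genes span, from 7.76 to 11.49, 2.45% of symbols were called higher and the median difference was 0.02.

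The count of called genes depended on the rows that entered the fit and on single arrays. The variance filter of the study's methods was read here as keeping the rows above the median variance. Applied to all rows, named or not, it left 30 of the 35 genes, and none was called by limma (12 rows were called in all). None of the 35 was called either when all 35556 rows of the table were fitted. The paper reports many more changed genes from its own filtered fit, and its count was not reproduced by this reading of the filter. Only Rad51b was still called without control replicate 2, without control replicate 3 or without knockdown replicate 2. With the replicate block (the replicate number as a term of the fit) 10 were called, the same 8 and Bard1 and Eme1, against 1.78% of all symbols called higher. The same 10 were called when the variance filter was applied to named rows only. In the fit with the replicate block 25 of the 35 had an adjusted p under 0.1 with knockdown higher, where 12.2% of all symbols did.

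**Figure D1:**
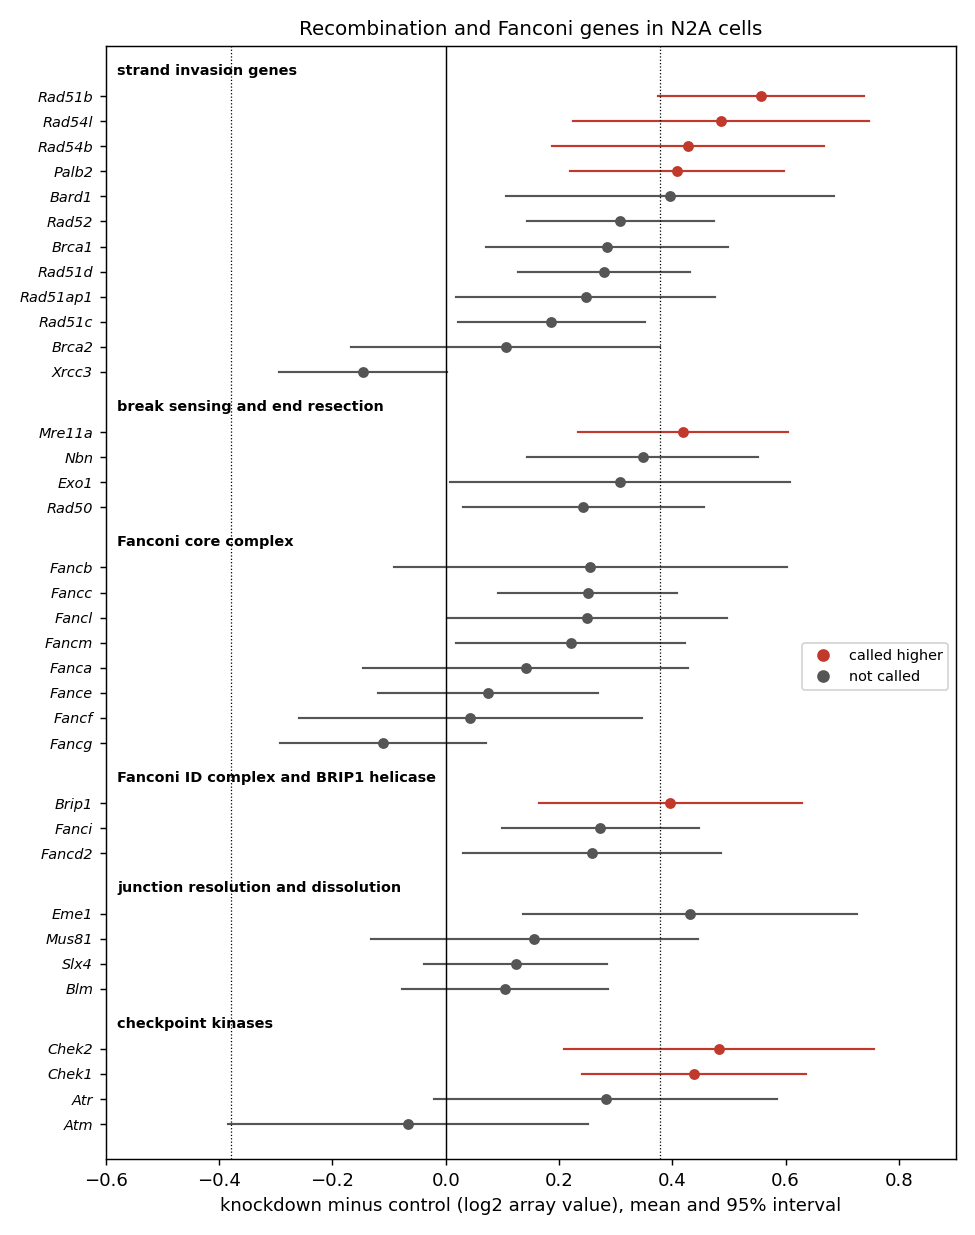
Difference between knockdown and control (horizontal axis, log2 array value) of the 35 measured genes, grouped by role; points are means over 3 arrays a group and lines 95% confidence intervals from limma. Red points are the 8 called genes, dotted lines mark the fold cut-off of 1.3, and 32 of the 35 points lie to the right of 0.

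Among the genes that act in strand invasion, Rad51b rose most. The gene, whose protein belongs to a complex with RAD51C and RAD51D, was 8.26, 8.24 and 8.34 on the control arrays and 8.73, 8.99 and 8.79 on the knockdown arrays. Every knockdown array was above every control array, by a mean of 0.56 ± 0.08 (SE), or 1.47-fold (limma adjusted p = 0.0182). Its difference was 0.61 with median centring, 0.58 after cyclic loess and 0.48 to 0.61 on leaving out 1 array. Rad51b was not called in the fits that included rows without a gene symbol. The other genes of this family differed by less. Rad51d was 9.08, 9.13 and 9.21 in control and 9.36, 9.45 and 9.45 in knockdown cells. Its groups were apart and it passed the p threshold (limma adjusted p = 0.0767), but its difference of 0.28 was below the fold cut-off. Rad51c was 9.98, 9.98 and 9.95 in control and 10.16, 10.26 and 10.04 in knockdown cells, a difference of 0.19 (limma adjusted p = 0.209). Xrcc3, which acts together with RAD51C, was the exception of the family. Its values were 8.80, 8.87 and 8.85 in control and 8.62, 8.75 and 8.72 in knockdown cells. All knockdown arrays lay below all control arrays, and the difference of -0.15 did not pass (limma adjusted p = 0.260). The difference of Xrcc3 was below 0 also with median centring and after cyclic loess.

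Both RAD54 genes, which encode motor proteins of strand invasion, rose. Rad54l was 9.02, 8.99 and 8.88 on the control arrays and 9.21, 9.72 and 9.42 on the knockdown arrays, a difference of 0.49 ± 0.12 (SE, limma adjusted p = 0.0744). Rad54b was 9.11, 9.06 and 8.99 in control and 9.48, 9.71 and 9.26 in knockdown cells, a difference of 0.43 ± 0.11 (limma adjusted p = 0.0827). For both genes knockdown replicate 2 was the highest array and the knockdown arrays spread more (SD 0.25 and 0.23) than the control arrays (SD 0.07 and 0.06). Without knockdown replicate 2 neither was called, and their differences were 0.35 and 0.32. Rad52, an annealing protein, was 10.27, 10.19 and 10.18 in control and 10.64, 10.44 and 10.49 in knockdown cells, and its difference of 0.31 passed the p threshold (limma adjusted p = 0.0744) but not the fold cut-off. Rad51ap1 differed by 0.25 with overlapping groups (limma adjusted p = 0.224).

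Of the genes of the BRCA1, BARD1, PALB2 and BRCA2 proteins, which act together at the resected end, Palb2 was called. It was 8.15, 8.28 and 8.18 on the control arrays and 8.56, 8.77 and 8.51 on the knockdown arrays, a difference of 0.41 ± 0.08 (SE) or 1.33-fold (limma adjusted p = 0.0502). PALB2 bridges BRCA1 and BRCA2. Bard1, the partner of BRCA1 in a ubiquitin ligase, was 9.43, 9.87 and 9.69 in control and 9.92, 10.29 and 9.96 in knockdown cells. Its groups were apart by a small margin, and its difference of 0.40 was past the fold cut-off but not the p threshold (limma adjusted p = 0.149), whereas with the replicate block it was called (limma adjusted p = 0.00645), as it was with the variance filter on named rows. The other rows of Bard1 differed by 0.21 and 0.34 and were not called. Brca1 was 10.10, 10.09 and 9.87 in control and 10.33, 10.43 and 10.15 in knockdown cells, a difference of 0.28 (limma adjusted p = 0.158) with groups apart. Brca2 differed by 0.11 (95% confidence interval -0.17 to 0.38) and its groups overlapped (limma adjusted p = 0.643). These genes of a common path thus differed in whether they passed, and the differences between them were not tested.

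**Figure D2:**
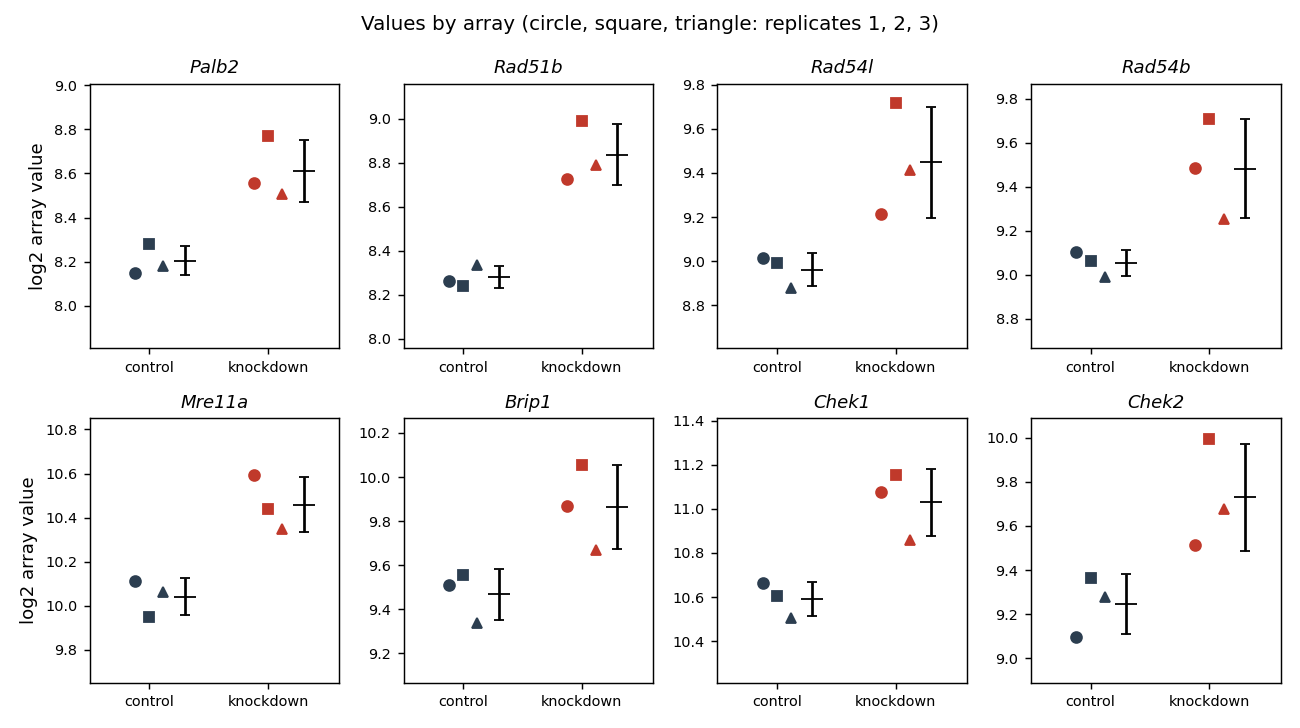
The 8 called genes on each array (vertical axes, log2 array value) in control and knockdown cells; circles, squares and triangles are replicates 1, 2 and 3, and bars are means ± SD (n = 3). The groups do not overlap for any of the 8 genes, and knockdown replicate 2 is the highest array for all but Mre11a.

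The nuclease gene Mre11a, whose protein trims broken ends together with RAD50 and NBN, rose by 0.42 ± 0.08 (SE, limma adjusted p = 0.0439). It was 10.11, 9.95 and 10.06 on the control arrays and 10.59, 10.44 and 10.35 on the knockdown arrays, with groups apart. Mre11a was not called under 7 of 16 other settings, among them cyclic loess, where its difference was 0.37, and the loss of control replicate 2 or 3 or knockdown replicate 1 or 2. Nbn, its regulatory partner, lay just under the fold cut-off, and was called with median centring and without knockdown replicate 3. It was 8.98, 8.89 and 8.93 in control and 9.27, 9.47 and 9.12 in knockdown cells, a difference of 0.35 (limma adjusted p = 0.0926), and a further row of Nbn with a lower mean differed by -0.08 (limma adjusted p = 0.656), so the rows of this gene disagree. Rad50, the structural subunit, was 11.64, 11.42 and 11.41 in control and 11.88, 11.74 and 11.58 in knockdown cells. Its groups overlapped and the difference of 0.24 did not pass (limma adjusted p = 0.206). Exo1, the exonuclease of long resection, differed by 0.31 with overlapping groups (limma adjusted p = 0.243).

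None of the 8 measured genes of the Fanconi core complex was called by limma, and 3 had an unadjusted p under 0.05. Their median was 0.18, or 0.23 with median centring, 0.16 after cyclic loess and 0.08 without knockdown replicate 2. The differences ran from -0.11 for Fancg to 0.26 for Fancb. Fancl encodes the ubiquitin ligase subunit. It was 7.86, 7.74 and 7.76 in control and 7.89, 8.31 and 7.91 in knockdown cells, where knockdown replicate 2 stood apart from the other knockdown arrays, and the difference was 0.25 (limma adjusted p = 0.248). Fancc was 7.81, 7.77 and 7.70 in control and 7.92, 8.09 and 8.02 in knockdown cells, a difference of 0.25 with groups apart (limma adjusted p = 0.113). Fancm, the translocase that anchors the complex on DNA, differed by 0.22 and Fanca by 0.14. Fance and Fancf differed by 0.08 and 0.04, and the value of Fancf was -0.01 after cyclic loess. Fancg was 9.12, 9.33 and 9.21 in control and 9.03, 9.22 and 9.07 in knockdown cells. Its groups overlapped (limma adjusted p = 0.461), although knockdown was the lower array in all 3 replicate pairs.

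Downstream of the core complex, the helicase gene Brip1 rose. It was 9.51, 9.55 and 9.34 on the control arrays and 9.87, 10.05 and 9.67 on the knockdown arrays, a difference of 0.40 ± 0.10 (SE, limma adjusted p = 0.0926) that lay just past both thresholds. Brip1 was not called under 9 of 16 other settings, among them cyclic loess and the loss of any array but knockdown replicate 3. Fanci and Fancd2, the pair of proteins that receive ubiquitin, differed by 0.27 and 0.26 (limma adjusted p = 0.114 and 0.206). Fanci was 9.22, 9.34 and 9.27 in control and 9.48, 9.68 and 9.49 in knockdown cells, with groups apart. Fancd2 was 9.98, 10.23 and 10.02 in control and 10.22, 10.53 and 10.26 in knockdown cells, where the lowest knockdown array was just below the highest control array.

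Of the genes that resolve joined molecules, none was called by limma, and 1 had an unadjusted p under 0.05. That gene was Eme1, the partner of the nuclease MUS81. It was 9.33, 9.66 and 9.62 in control and 9.75, 10.24 and 9.91 in knockdown cells, with groups apart. The difference of 0.43 was past the fold cut-off, but the limma adjusted p was 0.135, against 0.00594 with the replicate block, where Eme1 was called. It was called also with the variance filter on named rows and without knockdown replicate 1. Mus81 itself was 9.53, 9.93 and 9.90 in control and 9.71, 10.10 and 10.01 in knockdown cells, a difference of 0.16 with overlapping groups. Slx4, a scaffold of nucleases, and the helicase gene Blm differed by 0.12 and 0.10. The 95% confidence interval was -0.13 to 0.45 for Mus81, -0.04 to 0.28 for Slx4 and -0.08 to 0.29 for Blm, so that none excluded 0.

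The effector kinase genes of the checkpoint, Chek1 and Chek2, both rose. Chek1 was 10.66, 10.61 and 10.51 on the control arrays and 11.08, 11.15 and 10.86 on the knockdown arrays, a difference of 0.44 ± 0.09 (SE) or 1.36-fold (limma adjusted p = 0.0469). Chek2 was 9.10, 9.36 and 9.28 in control and 9.52, 9.99 and 9.68 in knockdown cells, a difference of 0.48 ± 0.12 or 1.40-fold (limma adjusted p = 0.0847). The groups were apart for both. Chek1 was not called under 5 and Chek2 under 7 of 16 other settings, and both calls were lost without control replicate 2, control replicate 3 or knockdown replicate 2. The apical kinase genes upstream of them were not called. Atr, which answers to exposed single strands, was 10.45, 10.12 and 10.19 in control and 10.84, 10.39 and 10.37 in knockdown cells. Replicate 1 was the highest array of both groups, so that the groups overlapped, and the difference was 0.28 (limma adjusted p = 0.276). Atm, which answers to broken ends, was 9.75, 9.43 and 9.33 in control and 9.73, 9.32 and 9.25 in knockdown cells. Here too replicate 1 was the highest array of both groups, and the difference of -0.07 had a 95% confidence interval of -0.38 to 0.25 (limma adjusted p = 0.813).

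Deviations from the group means correlated positively between arrays of the same replicate number over all rows, although those of replicates 2 and 3 correlated almost as much across numbers (Pearson's r 0.25 and 0.22). Most of the genes were higher in every replicate pair. Knockdown was above control in all 3 pairs for 31 of the 35 genes, where this held for 23.7% of all symbols. Xrcc3, Fancg and Atm were lower in all 3 pairs, and Fancf was higher in pairs 1 and 2 (0.15 and 0.11) and lower in pair 3 (-0.13). The median difference of the 35 genes was 0.23 in pair 1, 0.32 in pair 2 and 0.19 in pair 3. The largest of the 3 differences came from pair 2 for 24 genes and from pair 1 for 9. Knockdown replicate 2 was above the mean of the knockdown arrays for 31 of the 35 genes and knockdown replicate 3 for 5. Without knockdown replicate 2 the median was 0.21 and 1 gene was called, as was also the case without control replicate 2 (median 0.28) or control replicate 3 (0.23). The part of any one of these arrays in the calls was not tested, since each of these fits has fewer arrays.

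**Figure D3:**
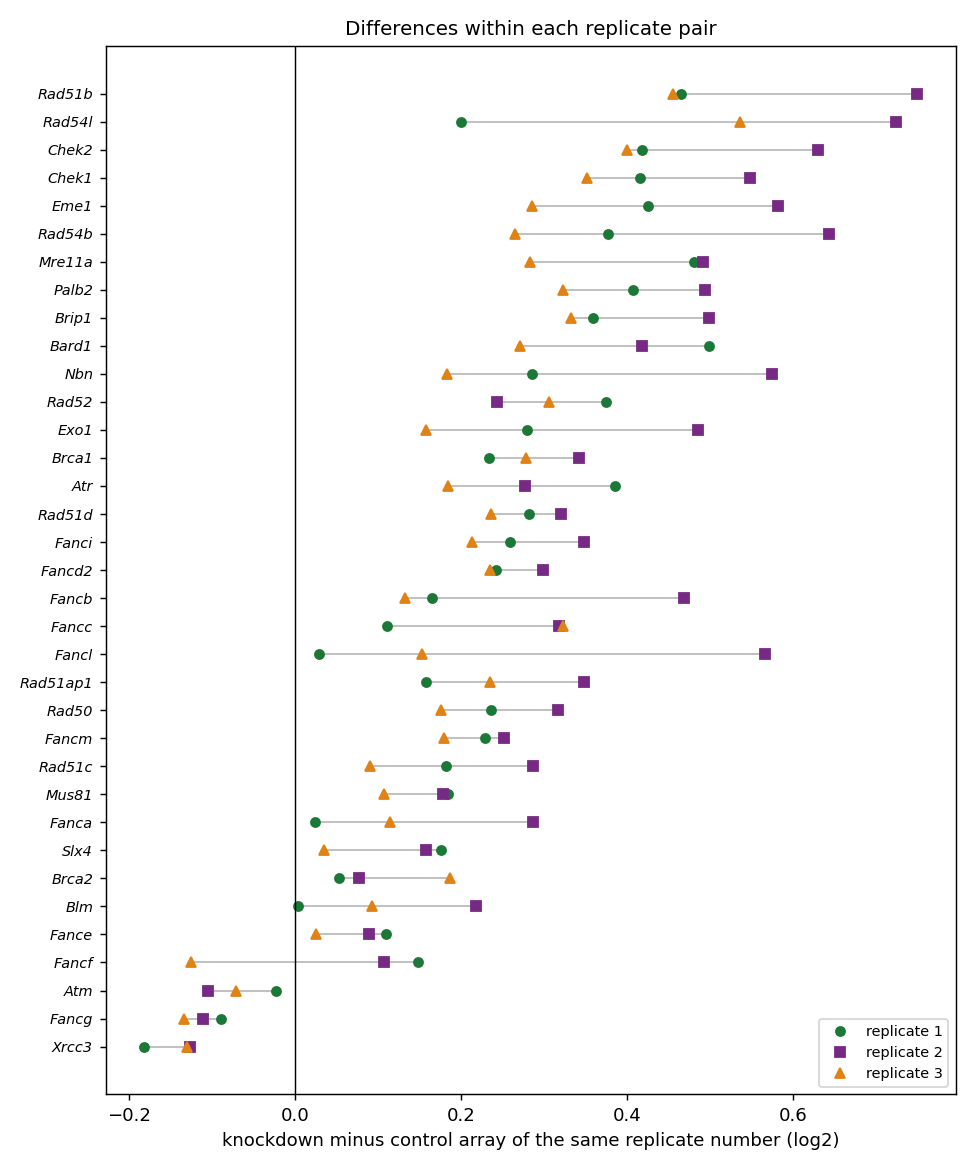
Difference between the knockdown and the control array of the same replicate number (horizontal axis, log2) for the 35 genes, ordered by their mean difference; circles, squares and triangles are pairs 1, 2 and 3, and grey lines span the 3 values. All 3 points lie above 0 for 31 genes and below 0 for Xrcc3, Fancg and Atm.

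Further genes that act with these proteins lay mostly above 0 as well, and the difference between the lists was not tested. Of 48 measured genes from a list of other recombination and Fanconi factors, 41 lay above 0 with a median of 0.18 (0.11 without knockdown replicate 2). Of these 48 genes 1 was called higher (2.08%, near the 1.35% of all symbols) and none lower. The called gene was Zswim7, whose protein belongs to the Shu complex of recombination. It was 7.92, 8.21 and 8.27 in control and 8.49, 8.85 and 8.60 in knockdown cells, a difference of 0.51 ± 0.12 (SE, limma adjusted p = 0.0662). The call of Zswim7 was lost without control replicate 2 or 3 and without knockdown replicate 2 or 3. Rad9a, a subunit of the checkpoint clamp, differed by 0.44 (limma adjusted p = 0.177) and was called with the replicate block (limma adjusted p = 0.00340) and the variance filter on named rows. The 17 measured genes of meiotic recombination had a median of -0.06 (-0.0022 after cyclic loess) and no limma call, with 1 at an unadjusted p under 0.05. The median control level of these 17 rows was 6.16, against 9.51 for the 35 genes. Whether such low rows could show a rise was not tested. Spo11, which makes the breaks of meiosis, was 5.82, 6.00 and 5.81 in control and 5.56, 5.68 and 5.62 in knockdown cells (limma adjusted p = 0.126).

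In the other repair pathways 2 of 51 measured genes were called, both higher (3.92%, where 1.35% of all symbols were called higher). The median of the 51 genes was 0.09 (0.14 with median centring). The list medians were 0.10 for non-homologous end joining (10 genes, none called by limma, 3 at an unadjusted p under 0.05), 0.25 for mismatch repair (5 genes, none called by limma, 3 at an unadjusted p under 0.05), 0.10 for base excision repair (18 genes) and 0.09 for nucleotide excision repair (18 genes). Leaving out 1 array lowered 3 of these medians by over 1.5 times, to 0.07 for end joining and 0.05 for nucleotide excision repair without knockdown replicate 2, and to 0.05 for base excision repair without control replicate 1. The called genes were Neil3, a glycosylase that also acts on crosslinks, with a difference of 0.59 ± 0.08 (SE, limma adjusted p = 0.0160), and the damage-binding factor gene Xpa, with 0.40 ± 0.10 (limma adjusted p = 0.0888). Neil3 was called also on leaving out each array in turn. Xpa was not called under 9 of 16 other settings, among them cyclic loess and the loss of any array but knockdown replicate 3. Of these pathways, mismatch repair had the median nearest to that of the recombination genes. Pms1 differed by 0.40 (limma adjusted p = 0.142) but was called under 5 of 16 other settings, the replicate block (limma adjusted p = 0.00538), median centring, array weights, the variance filter on named rows and the loss of control replicate 1. Pms2 differed by 0.27 (limma adjusted p = 0.0827). The largest differences of end joining were those of Aplf and Poll, 0.33 and 0.31, neither of which passed (limma adjusted p = 0.157 and 0.192). Aplf was called with array weights and without control replicate 1.

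Of the cell cycle lists, 10.5% of the G2 and mitosis genes and 5% of the S phase genes were called higher. The share called higher was 1.35% among all symbols and 22.9% among the 35 recombination and Fanconi genes. All 19 measured genes of a list of G2 and mitosis lay above 0 with a median of 0.32, and 2 were called higher, the phosphatase gene Cdc25c (0.62 ± 0.07, SE, limma adjusted p = 0.0103) and the spindle checkpoint kinase gene Ttk (0.48 ± 0.08, limma adjusted p = 0.0215). The count was 6 with median centring, 5 without control replicate 1, 4 without knockdown replicate 1 and 1, Cdc25c, without knockdown replicate 2. At an unadjusted limma p under 0.05, 16 of the 19 were higher and 0 lower, where 9.62% of all symbols were higher. Of the 19, 7 had an adjusted p under 0.1, and 12 had groups apart with knockdown above control, as for 10.9% of all symbols. Of 20 genes of S phase 16 lay above 0 with a median of 0.13, and the DNA primase gene Prim1 was the call (0.43 ± 0.11, limma adjusted p = 0.0786). Without knockdown replicate 2 the S phase median was 0.06, with 12 genes above 0, and the call of Prim1 was lost there, after cyclic loess and without control replicate 2, control replicate 3 or knockdown replicate 1. Gins1, a subunit of the replicative helicase complex, had the largest S phase difference, 0.53 (limma adjusted p = 0.155), and was called with the replicate block (limma adjusted p = 0.00596), the variance filter on named rows and without knockdown replicate 1. The median of the recombination and Fanconi genes lay between those of these lists. No measure of cell cycle phase accompanies the arrays, and the part of the cell cycle in the higher levels of the repair genes was not tested.

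**Figure D4:**
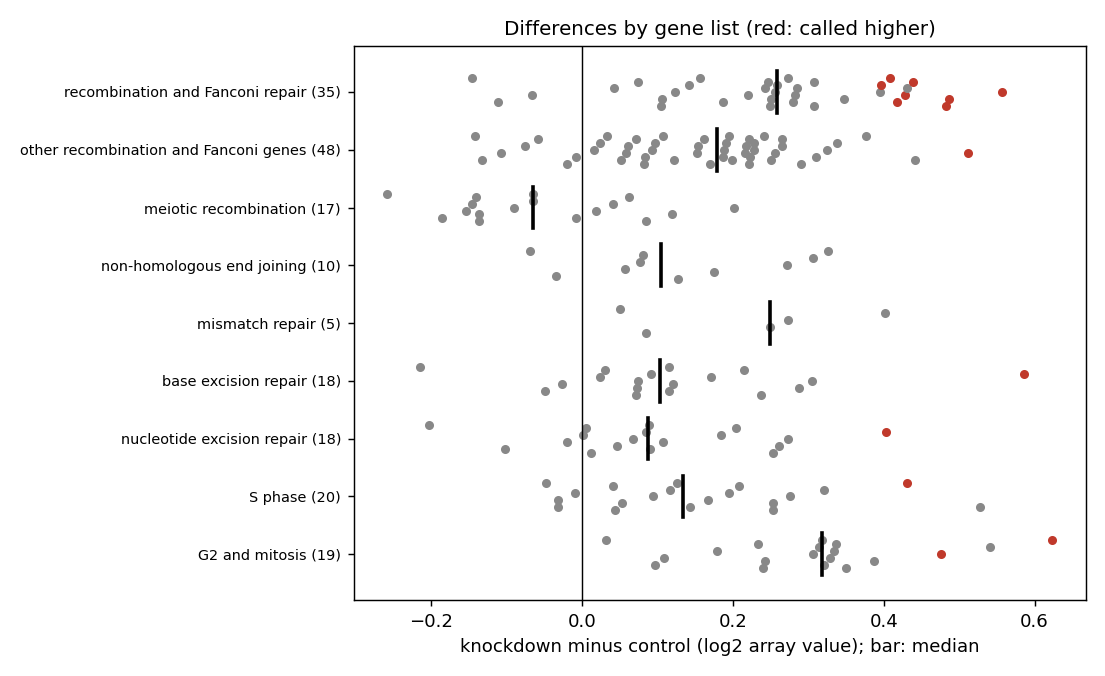
Difference between knockdown and control (horizontal axis, log2 array value) of single genes in 9 lists, with the number measured in parentheses; black bars are list medians and red points are genes called higher. The medians are 0.26 for the recombination and Fanconi genes, -0.06 for meiotic recombination and 0.32 for G2 and mitosis.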

How the data were processed

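The deposited values are log2 array values, which the authors made by RMA background correction, quantile normalisation and a summary of the probes of each gene. The submitters' processing notes name RMA and limma. Versions are not given in the sources used here. Quantile normalisation hides a change shared by most transcripts. The values carry no detection calls, and precision is limited by the number of arrays. Row names came from GEO's annotation of the platform. Of 35556 rows, 21789 had 1 symbol, 1621 had several and 12146 were not listed, and only the rows with 1 symbol were fitted (limma 3.58.1 in R 4.3.3, lmFit and eBayes, no block, no variance filter). The study's methods filter on variance instead. The members, the gene lists and this test were chosen with earlier results of these data known. Calls needed a Benjamini-Hochberg adjusted p under 0.1 together with a 1.3-fold change. The script was tested on simulated data. Deviations from the group means correlated between arrays of the same number (Pearson's r over rows 0.64, 0.31 and 0.29, against -0.48 to 0.25 between different numbers, where replicates 2 and 3 gave 0.25 and 0.22). Replicates 2 and 3 are thus hardly told apart by number. The replicate numbers of the labels were used as pairs in the block fit and the pair differences only, and the main fit ignores them. The 35 measured genes of the 37 chosen are described, with values on every array for called genes, genes below 0 and genes near the fold cut-off, and of other lists called genes and up to 2 of the largest differences. An exact permutation test of 3 arrays against 3 cannot go below 0.1, so no such p is given. Other settings were further filters, scalings, array weights, a variance trend, the mean of a gene's rows, other thresholds, the replicate block and the loss of each array.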

Additional observations from a re-analysis of the deposited data

How the results depend on the processing

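The median difference of the 35 genes kept its direction under all alternatives run for it and moved by less than the spread over the knockdown arrays (SD 0.13). The count of called genes, 8, was 0 with the variance filter on all rows and 0 with all rows of the table fitted, 3 at an adjusted p under 0.05, and 1 to 7 on leaving out 1 array. It lay between 6 and 11 under the other alternatives, and no gene was called lower under any. With the replicate block it was 10, and no call was lost. Over all rows, 433 calls became 12 with the variance filter on all rows, 28 with all rows fitted and 969 without a fold cut-off, and 147 to 611 on leaving out 1 array. The called genes stayed above 0 with median centring and after cyclic loess. The filters, the replicate block, the variance trend and the mean of rows leave the difference of these single-row genes as it is. With groups apart, array weights or the loss of 1 array cannot reverse it, so these settings do not test its direction. The cause of the changes in the counts was not tested. The table gives no signal over background, so what dim probes limit was not analysed here.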
